A study of Mus musculus with 9 samples.

Results

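The high mobility group (HMG) chromatin proteins were followed as 8 genes, Hmga1, Hmga2, Hmgb1, Hmgb2, Hmgb3, Hmgn1, Hmgn2 and Hmgn3. They were taken by symbol from the table of raw counts and that of TPM, in which they are 8 of 37411 gene rows. TPM is transcript abundance per gene length, scaled to 1 common total in every sample. All 8 passed the filter on low counts in each comparison. Against vehicle, Hmga2 passed it only through its OxA cultures, as its raw vehicle counts were 3 to 6. The cells were GT1-7-OX1 cells, a line of mouse hypothalamic neurons immortalized by SV40 T-antigen under the GnRH promoter and transduced with a lentivirus carrying human OX1, an orexin receptor, and a GFP reporter. Every group carries this receptor, and the transduced population was expanded from wells with high GFP. The 9 cultures fell into 3 groups of 3, namely vehicle (water) for 8 h, 200 nM orexin A (OxA, the neuropeptide that activates OX1) for 3 h, and 200 nM OxA for 8 h. Medium was replaced at treatment and the vehicle cultures were taken at 8 h only, so at 3 h the effect of OxA and that of the time since fresh medium cannot be told apart. Between the OxA times, the length of OxA treatment and the time since fresh medium likewise cannot be told apart.

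HMGA proteins hold AT-hooks, short motifs that grip the minor groove of AT-rich DNA, and they bend DNA and help transcription factors to assemble at enhancers. They are abundant in embryonic and transformed cells and scarce in most adult tissues, and in the developing brain HMGA2 is known for its part in the self-renewal of neural stem cells. HMGB proteins carry paired HMG boxes and an acidic tail and bend DNA without much regard to sequence. HMGN proteins bind the nucleosome itself and compete with linker histone H1 for it.

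Hmga1 lies on chromosome 17 (chr17:27556497-27563674, plus strand), Hmga2 on chromosome 10 (chr10:120361275-120476469, minus strand), and Hmgb2 on chromosome 8 (chr8:57511907-57515999, plus strand), all on GRCm38 (mm10) with GENCODE M21. RefSeq windows on GRCm38.p6 that run from 250 bases before to 50 bases after the RefSeq start of the gene, which need not be the GENCODE start, were found for 7 of the 8 genes (all but Hmgn3). The windows of Hmga1 (chr17:27556324-27556623, plus strand) and Hmga2 (chr10:120476420-120476719, minus strand) are shown because these genes had by far the larger changes, and that of Hmgb2 (chr8:57511593-57511892, plus strand) to set a window with CCAAT boxes beside them. Capitals mark matches to any of the 6 motifs searched.
Hmga1: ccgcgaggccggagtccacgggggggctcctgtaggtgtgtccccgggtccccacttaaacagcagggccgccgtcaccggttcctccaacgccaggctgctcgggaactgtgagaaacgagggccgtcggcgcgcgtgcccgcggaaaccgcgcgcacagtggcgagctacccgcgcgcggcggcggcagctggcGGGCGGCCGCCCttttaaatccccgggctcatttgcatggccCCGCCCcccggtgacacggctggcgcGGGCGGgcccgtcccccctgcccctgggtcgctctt
Hmga2: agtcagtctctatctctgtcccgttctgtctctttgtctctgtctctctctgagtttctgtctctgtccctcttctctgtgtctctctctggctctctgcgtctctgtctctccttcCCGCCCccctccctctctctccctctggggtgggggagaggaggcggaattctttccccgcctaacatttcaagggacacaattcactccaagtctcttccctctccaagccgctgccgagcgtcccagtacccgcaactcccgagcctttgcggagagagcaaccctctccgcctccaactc
Hmgb2: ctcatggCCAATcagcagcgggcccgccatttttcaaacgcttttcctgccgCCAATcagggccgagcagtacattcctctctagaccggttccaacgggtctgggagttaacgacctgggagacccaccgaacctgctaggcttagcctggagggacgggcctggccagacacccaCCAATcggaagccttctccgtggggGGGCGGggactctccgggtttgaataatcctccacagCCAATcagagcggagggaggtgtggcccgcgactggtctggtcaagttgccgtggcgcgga

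The motifs were read on both strands. They were the AP-1 site (TGANTCA, in 7.81% of 32851 windows of this length), the CRE (TGACGTCA, 1.79%), the EGR site (GCGTGGGCG, 0.612%), the GC box (GGGCGG, 35.7%), the E-box (CACGTG, 7.15%) and the CCAAT box (CCAAT, 37.4%). The windows of Hmga1 and Hmga2 held GC boxes and no other motif searched. There were 4 in the window of Hmga1, starting at bases -54, -48, -12 and 14 from the start site, and 1 in that of Hmga2, at base -133. By contrast, CCAAT boxes stood in each of the other 5 windows (Hmgb1, Hmgb2, Hmgb3, Hmgn1 and Hmgn2), with 4 in that of Hmgb2. A GC box was found in 6 of the 7 windows (not in Hmgb1) and an E-box in that of Hmgn2, where it overlaps a GC box by 1 base in the run CCGCCCACGTG. None of the 7 windows matched the AP-1, CRE or EGR letters. A match is only a run of letters, and its absence says nothing of a factor acting elsewhere. The GC content was 74.0% for Hmga1, 57.7% for Hmga2 and 62.0% for Hmgb2.

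Per transcript length, the families were of very different abundance in vehicle-treated cells. In mean TPM with the SD over 3 cultures, Hmgn1 stood first at 591 ± 12.1, followed by Hmgn2 at 244 ± 4.73. Next came Hmgb1 at 123 ± 3.22 and Hmgb2 at 81.7 ± 2.99. Hmgn3 had 34.2 ± 2.30 TPM, Hmgb3 24.9 ± 1.42, Hmga1 4.88 ± 0.581 and Hmga2 0.151 ± 0.0516. No pair of neighbours in this order overlapped between its vehicle cultures. The narrowest step was from Hmgn3 to Hmgb3 (1.38-fold) and the widest from Hmga1 to Hmga2 (32.4-fold). Summed over each family, the Hmgn genes made up 78.8% of the TPM of the 8 genes in vehicle, the Hmgb genes 20.8% and the Hmga genes 0.455%.

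**Figure D1:**
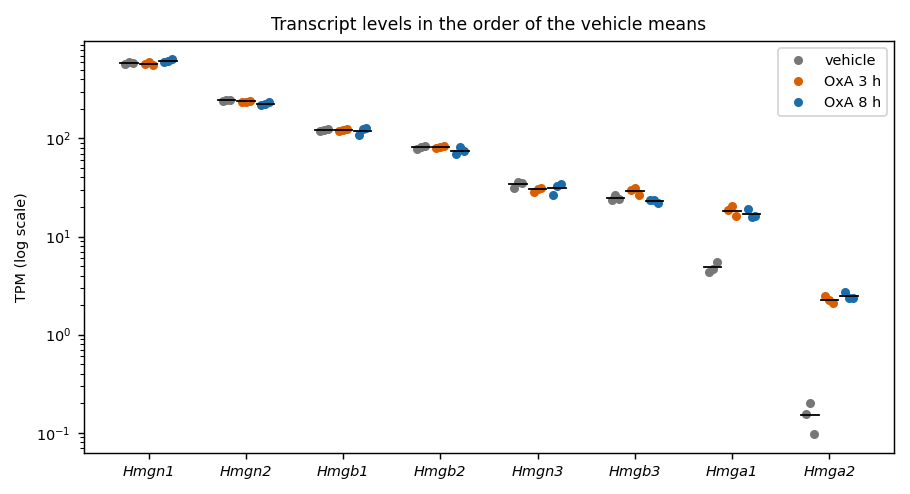
TPM (log scale) of each gene in each culture, in the order of the vehicle means, with points for cultures and lines for group means (n = 3). Hmga1 moved from 4.88 TPM in vehicle to 18.4 at 3 h and 17.1 at 8 h, and Hmga2 from 0.151 to 2.28 and 2.48, while the other 6 genes stayed near their vehicle levels.

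The libraries held 16217786 to 20445364 counts assigned to genes, and these ranges overlapped between the groups. All 20 neuronal marker genes of a list that includes Gnrh1 reached 2 TPM in every group, while of 9 glial and endothelial markers 0 did so in vehicle and 1 at each OxA time. The summed TPM of those 9 was 3.46 to 4.70 in vehicle, 4.18 to 4.92 at 3 h and 4.25 to 5.56 at 8 h. No count of Ptprc (a leukocyte marker) was found in vehicle or at 8 h, and none of Tnf at 3 h. The summed TPM of the neuronal markers was 3995 to 4591 in vehicle, 4212 to 4476 at 3 h and 3476 to 3636 at 8 h. Most of this sum was Gnrh1 alone, at 3924 ± 304 TPM in vehicle (SD, n = 3). The part of these shifts in the results was not tested. In bulk RNA of this kind, more cells that express a gene and more RNA of it per cell cannot be told apart.

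After 3 h of OxA both HMGA genes were higher than in vehicle, as was Hmgb3 by much less, and no member fell (3 up, 0 down, 5 not called at an adjusted p under 0.05). The adjusted p values are from edgeR's quasi-likelihood test with Benjamini-Hochberg adjustment over all genes. Over the 15352 genes tested, 38.9% were called in either direction, 20.2% as up and 18.7% as down, so the number of HMG genes called is near the background. Their sizes were not alike. A rise of over 2-fold was called for 2.79% of genes, and both HMGA genes passed this limit while the other 6 members did not. Between vehicle and 3 h, 5 of the 8 genes had no overlap between the cultures of the groups (Hmga1, Hmga2, Hmgb1, Hmgb2 and Hmgb3), beside 48.1% of all genes.

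Hmga1 encodes the HMGA protein that is also found in many dividing cells outside the embryo. Its normalized counts (raw counts scaled to a common library size) were 70.6, 73.2 and 87.7 in the 3 vehicle cultures, 317, 337 and 265 after 3 h of OxA, and 321, 253 and 269 after 8 h. Every OxA culture lay above every vehicle culture, and the 3 h and 8 h cultures overlapped. At 3 h the log2FC was 1.99 (SE 0.13, adjusted p = 1.38e-11), a 3.97-fold rise. At 8 h it was 1.86 (SE 0.13, adjusted p = 1.27e-10), a 3.64-fold rise. Hmga1 ranked 109 of the 15352 genes by log2FC at 3 h and 73 of 15407 at 8 h.

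Hmga2 encodes the HMGA protein most closely tied to embryonic tissue. It was close to the limit of detection in vehicle, with raw counts of 5, 6 and 3. After 3 h of OxA the raw counts were 72, 66 and 64, and after 8 h 99, 81 and 66. In normalized counts the vehicle cultures stood at 4.77, 5.93 and 2.96, the 3 h cultures at 80.8, 71.9 and 65.4, and the 8 h cultures at 87.5, 72.8 and 73.9. The lowest OxA culture was thus above 65 normalized counts and the highest vehicle culture below 6. The log2FC was 3.997 at 3 h (SE 0.30, adjusted p = 2.34e-10, 15.97-fold) and 4.10 at 8 h (SE 0.29, adjusted p = 2.01e-10, 17.1-fold), and the gene ranked 11 and 13 by log2FC. As vehicle held 14 counts in all, the fold is loosely set: the ratio of summed, depth-scaled counts was 15.9 at 3 h (95% exact interval 9.26 to 29.6) and 17.2 at 8 h (10.1 to 32.0). These intervals cover counting error only. For Hmga1, with 237 vehicle counts, the like interval at 3 h was 3.42 to 4.59.

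Hmga1 and Hmga2 both stand on the list of regulated transcription factors that the study drew from these samples, so their direction here is not independent evidence. The log2FC values that the study lists for both genes are smaller than those here at both times, more so for Hmga2. The comparisons at 3 h and at 8 h share the vehicle cultures. Hmga2 stayed the scarcer transcript in every culture. The TPM of Hmga1 was 23.6 to 56.9 times that of Hmga2 in the vehicle cultures, 7.53 to 8.96 times at 3 h and 6.66 to 7.02 times at 8 h. The Hmga sum rose from 5.03 ± 0.544 TPM to 20.7 ± 2.21 at 3 h and 19.6 ± 2.13 at 8 h (SD, n = 3), which was 1.87% and 1.76% of the TPM of the 8 genes. The total over the 8 genes was 1104 ± 24.6, 1102 ± 20.6 and 1113 ± 42.2 TPM in vehicle, 3 h and 8 h.

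**Figure D2:**
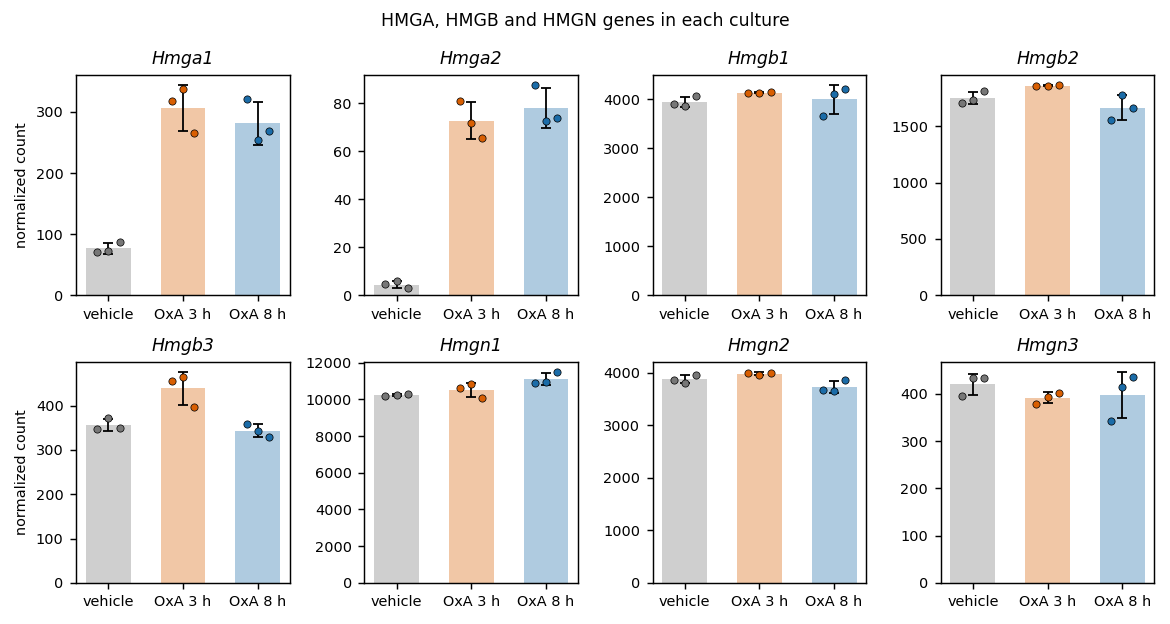
Normalized counts of the 8 genes in each culture by group, with points for cultures, bars for means and error bars for the SD (n = 3), each panel on its own axis from 0. The HMGA panels show vehicle cultures far below all OxA cultures, Hmgb3 is higher at 3 h only, and the other panels are nearly level.

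Some reads cannot be tied to these genes alone. Of all stretches of 50 bases in the annotated transcripts of Hmga2, 4.86% also occur in transcripts of other genes, most of them in 1700006J14Rik, an antisense gene that overlaps 140 exonic bases of Hmga2. That antisense gene had 0 counts in all 3 vehicle cultures, 8 to 12 at 3 h and 8 to 10 at 8 h, so its counts moved with those of Hmga2. The same held for 9230105E05Rik, an antisense gene inside Hmga2 that shares no exonic base with it, with 0 to 2 counts in vehicle, 4 to 10 at 3 h and 4 to 7 at 8 h. Mir763, a microRNA gene inside Hmga2 on the same strand and likewise outside its exons, had 1 count in all vehicle cultures, 16 at 3 h and 9 at 8 h. None of the 3 passed the filter on low counts, so none was tested. The libraries were stranded but the strand setting of the counting is not given in the sources used here. The counts of the antisense genes may thus hold reads from the Hmga2 strand. Within the exons of Hmga2 the overlap is limited to the 140 bases shared with 1700006J14Rik. AI413582, which overlaps 102 exonic bases of Hmga1 on the other strand, was not called in any comparison, with adjusted p of 0.0919 at 3 h and 0.265 at 8 h.

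Among the HMGB genes, Hmgb3 passed the test at 3 h. Hmgb3 is the X-linked member, known from blood stem and progenitor cells. Its normalized counts were 347, 372 and 350 in vehicle, 455, 464 and 397 at 3 h, and 358, 343 and 329 at 8 h. The 3 h cultures lay above all the others, and those of vehicle and 8 h overlapped. The log2FC at 3 h was 0.30 (SE 0.081, adjusted p = 0.00439), a 1.23-fold rise that ranked 2563 of 15352. With limma on log2(TPM + 1) it was 0.22 with an adjusted p of 0.0522, so the call at 3 h depends on the scale used. At 8 h against vehicle it was -0.055 (SE 0.081, adjusted p = 0.666).

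Hmgb1, which encodes the most abundant HMGB protein and an alarm signal when released from damaged cells, was not called in any comparison. Its normalized counts were 3898, 3852 and 4055 in vehicle, 4129, 4133 and 4138 at 3 h, and 3664, 4105 and 4214 at 8 h. The 3 h cultures were above those of vehicle by a small margin, and the 8 h cultures spread across both. The log2FC was 0.074 at 3 h (SE 0.042, adjusted p = 0.178) and 0.015 at 8 h (SE 0.048, adjusted p = 0.852). Its sign was not stable, since with upper-quartile scaling the 8 h value was -0.015 and with limma on log2(TPM + 1) the 3 h value was -0.0012. Of its transcript stretches of 50 bases, 26.1% occur in transcripts of 132 other genes, so its counts are uncertain where reads from such stretches were dropped. The share was 41.2% for Hmgn2, 28.3% for Hmgb3, 21.2% for Hmgb2, 12.2% for Hmgn3 and 6.41% for Hmgn1.

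Hmgb2, an HMGB gene used most by dividing cells, had normalized counts of 1706, 1731 and 1809 in vehicle and 1851, 1856 and 1863 at 3 h. At 8 h they were 1552, 1779 and 1658. The vehicle and 3 h cultures did not overlap, yet the difference was not called (log2FC 0.090, SE 0.047, adjusted p = 0.143). At 8 h against vehicle the log2FC was -0.078 (SE 0.052, adjusted p = 0.289). The value at 3 h turned to -0.0089 when libraries were scaled by their totals without 3 abundant noncoding RNAs.

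After 8 h of OxA, 3 HMG genes were again called as up (Hmga1, Hmga2 and Hmgn1), with 0 down and 5 not called. The background was 28.4% of 15407 genes called in either direction and 15.3% as up. A rise of over 2-fold was called for 1.25% of genes and, among the members, for both HMGA genes. In 3 of the 8 genes (the ones called) the cultures did not overlap with vehicle, beside 41.2% of all genes.

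Hmgn1, the most abundant of the 8 transcripts, encodes a nucleosome-binding protein of open chromatin. Its normalized counts were 10171, 10216 and 10276 in vehicle, 10599, 10864 and 10084 at 3 h, and 10880.4, 10934 and 11479 at 8 h. Every 8 h culture was above every vehicle and 3 h culture. The difference from vehicle was small, 1.08-fold at 8 h (log2FC 0.11, SE 0.039, adjusted p = 0.0327), and at 3 h it was not called (log2FC 0.044, SE 0.041, adjusted p = 0.428). The call at 8 h was lost in 8 of 16 alternatives, for example with upper-quartile scaling (log2FC 0.083, adjusted p = 0.112). It was also lost without vehicle replicate 1 (adjusted p = 0.0945), vehicle replicate 2 (adjusted p = 0.0728) or OxA 8 h replicate 3 (adjusted p = 0.161).

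Hmgn2 and Hmgn3 encode related nucleosome-binding proteins and were not called in any comparison. Hmgn2 had normalized counts of 3857, 3809 and 3956 in vehicle, 3993, 3945 and 3992 at 3 h, and 3666, 3642 and 3855 at 8 h, with overlap of vehicle and each OxA group. Its log2FC was 0.041 at 3 h (SE 0.042, adjusted p = 0.477), negative under upper-quartile scaling (-0.019), and -0.064 at 8 h (SE 0.043, adjusted p = 0.285). Hmgn3 had 395, 433 and 433 in vehicle, 379, 393 and 402 at 3 h, and 343, 414 and 435 at 8 h. These groups overlapped too, and 1 of the 8 h cultures stood well below the other 2. The log2FC of Hmgn3 was -0.098 at 3 h (SE 0.077, adjusted p = 0.343) and -0.092 at 8 h (SE 0.087, adjusted p = 0.474). Hmgn5, a further HMGN gene in the table, had 45.0, 36.1 and 44.2 mean normalized counts in vehicle, 3 h and 8 h and was not called (adjusted p of 0.366, 0.911 for 8 h against vehicle and 0.462 for 8 h against 3 h). Hmgb4, a germ-cell HMGB gene, was too low to test in these cells.

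**Figure D3:**
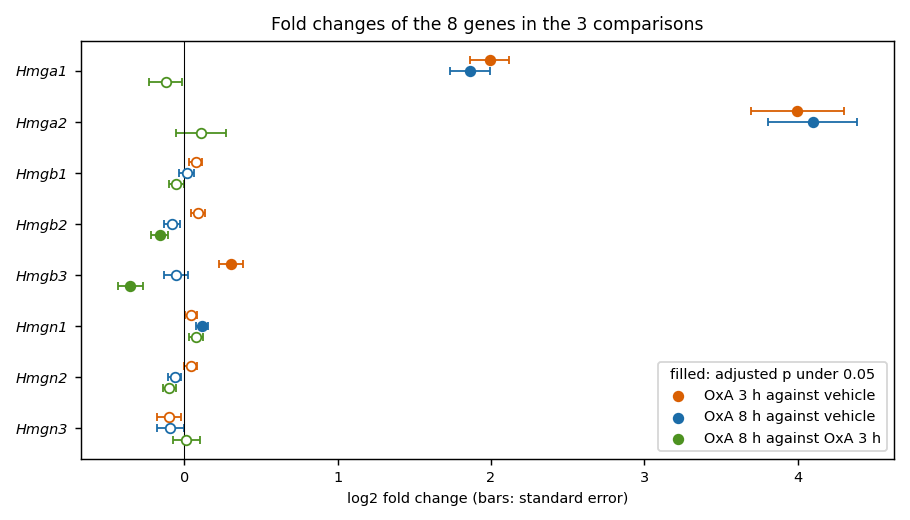
Log2FC (x axis) of the 8 genes in the 3 comparisons, with SE bars and filled points for an adjusted p under 0.05. The HMGA genes stand at 1.86 to 4.10 against vehicle and near 0 between the OxA times, and the other 6 genes lie between -0.35 and 0.30.

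Between the OxA times, 0 members rose, 2 fell (Hmgb2 and Hmgb3) and 6 were not called, beside 28.0% of 15278 genes called in either direction and 14.3% as down (a rise of over 2-fold was called for 0.674% of genes and 0 members). Hmgb3 fell by 0.35 on the log2 scale from 3 h to 8 h (SE 0.082, adjusted p = 0.00268), to values that overlapped those of vehicle. Hmgb2 fell by 0.16 (SE 0.054, adjusted p = 0.0293), and all 3 of its 8 h cultures were below all those of 3 h. This second call was lost in 9 of 16 alternatives, while that of Hmgb3 was kept in all 16. Without OxA 8 h replicate 1 the log2FC of Hmgb2 was -0.11 (adjusted p = 0.147). Leaving out OxA 3 h replicate 2 (adjusted p = 0.0605) or 3 (0.0706), or OxA 8 h replicate 3 (0.0576), also lost the call. The HMGA genes were not called between the times. For Hmga1 the log2FC was -0.12 (SE 0.11, adjusted p = 0.437) and for Hmga2 0.11 (SE 0.16, adjusted p = 0.678). In ratios of summed counts, 8 h over 3 h was 0.924 for Hmga1 (95% interval 0.840 to 1.02) and 1.08 for Hmga2 (0.895 to 1.31). Hmgn1 (log2FC 0.076, adjusted p = 0.22) and Hmgn2 (-0.098, adjusted p = 0.107) did not overlap between the times but were not called. Hmgb1 (-0.052, adjusted p = 0.493) and Hmgn3 (0.014, adjusted p = 0.931) overlapped. Non-overlap was found for 4 of the 8 genes, beside 40.5% of all genes.

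**Figure D4:**
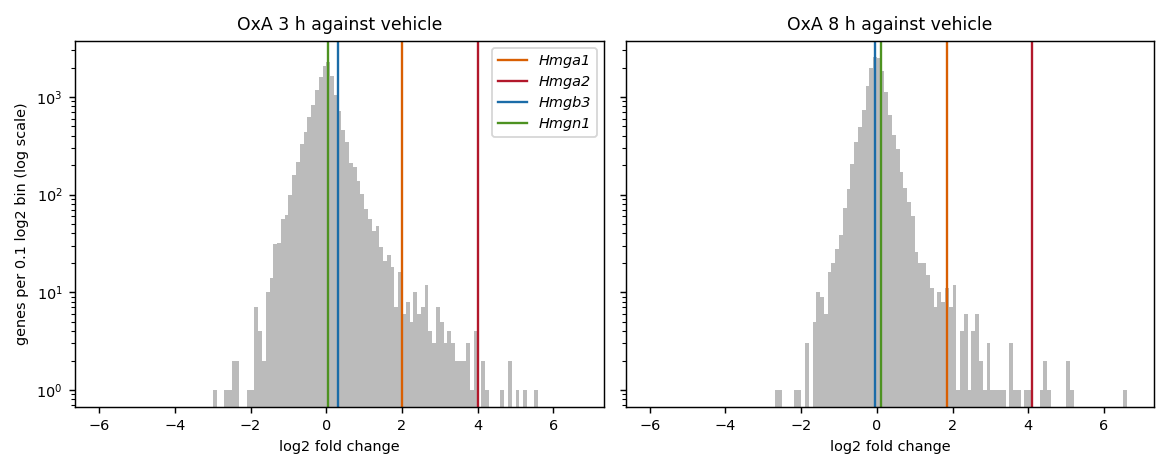
Histograms of log2FC over all genes tested at 3 h (left) and 8 h (right), with the count of genes per bin on a log scale and lines at 4 HMG genes. Hmga2 (3.997 and 4.10) and Hmga1 (1.99 and 1.86) lie in the right tail, and Hmgb3 and Hmgn1 lie within the main body of genes.

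Proliferation genes moved alongside Hmgb2 and Hmgb3 between the OxA times. Of 18 such genes 6 were called up and 1 down at 3 h, 0 up and 4 down at 8 h, and 0 up and 10 down at 8 h against 3 h. The median log2FC was 0.049, -0.044 and -0.15, beside -0.0040, -0.0081 and 0.0063 over all genes. Among all genes tested, 20.2% were called up and 18.7% down at 3 h, and 15.3% and 13.1% at 8 h. At 8 h against 3 h these shares were 13.7% and 14.3%. Rrm2, a subunit of the enzyme that makes deoxynucleotides, rose from 2970.4 ± 132 to 3756 ± 332 normalized counts at 3 h (log2FC 0.34, adjusted p = 2.09e-05) and was lower again at 8 h than at 3 h (-0.28, adjusted p = 0.000453). Mki67, the Ki-67 antigen of cycling cells, went from 33951 ± 1147 in vehicle to 29210.3 ± 749 at 8 h (-0.22, adjusted p = 0.000152). The part of proliferation in the Hmgb changes was not tested. At 3 h the split of this list turned to 2 up and 6 down with scaling by totals without the abundant RNAs. Under that scaling 32.1% of all calls at 3 h were up, beside 52.0% in the main fit, and with upper-quartile scaling 39.5%. At 8 h the share of calls that were up went from 53.9% to 36.0% with totals without the abundant RNAs, and between the times from 49.0% to 59.5%.

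Other genes with HMG boxes, and Hmgn5, changed in both directions at 3 h. Of 22 listed, 17 were tested, with 7 up and 5 down at 3 h, 2 up and 1 down at 8 h, and 0 up and 7 down between the times. The shares of all genes were 20.2% up and 18.7% down at 3 h, and 15.3% and 13.1% at 8 h. Between the times they were 13.7% and 14.3%. The number of listed genes down was 3 at 3 h without vehicle replicate 1 or OxA 3 h replicate 3. It was 4 between the times without OxA 8 h replicate 1. With the replicate block 5 were up at 8 h. The largest change was that of Ubtf, the HMG-box factor that drives transcription of ribosomal RNA genes. It rose from 2704 ± 166 to 5363 ± 384 normalized counts at 3 h (log2FC 0.99, SE 0.052, adjusted p = 1.09e-12) and was at 2950.3 ± 130 at 8 h (-0.86 against 3 h, adjusted p = 1.01e-10). Unlike Hmga1 and Hmga2, it was not called at 8 h against vehicle (adjusted p = 0.0734). Tfam, which packages mitochondrial DNA, rose at 3 h (log2FC 0.43, adjusted p = 1.39e-06) and at 8 h (0.24, adjusted p = 0.00203). Hmgxb3, an HMG-box gene, rose at both times as well (0.45, adjusted p = 6.89e-08, and 0.23, adjusted p = 0.0011). Tox3, a neuronal HMG-box gene, fell by 0.61 at 3 h (adjusted p = 0.006). Bbx fell by 0.35 at 3 h (adjusted p = 9.20e-07) and by 0.26 at 8 h (adjusted p = 0.000166).

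Linker histones, which HMGN and HMGA proteins displace from nucleosomes, had 0 members called up and 2 called down of the 8 tested (of 11 listed) in each comparison. Over all genes the share called down was 18.7% at 3 h, 13.1% at 8 h and 14.3% between the times. The 2 of 8 are a larger share than each of these, but rest on few genes. The number down was not stable. At 8 h it was 6 with the replicate block and 5 without OxA 8 h replicate 1, and between the times it was 5 without OxA 8 h replicate 1 and 1 without OxA 3 h replicate 3, OxA 8 h replicate 2 or OxA 8 h replicate 3. H1f0, the histone H1.0 of differentiated cells, went from 6564 ± 554 normalized counts in vehicle to 5317 ± 291 at 3 h (log2FC -0.30, adjusted p = 0.000223) and 4963 ± 296 at 8 h (-0.41, adjusted p = 6.28e-05). H1fx went from 322 ± 23.6 in vehicle to 233 ± 12.1 at 8 h (-0.47, adjusted p = 0.000392), and Hist1h1d fell by 0.18 at 3 h (adjusted p = 0.0232). This last call was lost without vehicle replicate 1 (adjusted p = 0.162), OxA 3 h replicate 2 (0.0834) or OxA 3 h replicate 3 (0.0863). The median log2FC of the list was -0.065 at 3 h, -0.16 at 8 h and -0.14 between the times. Over all genes it was -0.0040, -0.0081 and 0.0063.

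Histone chaperones were called in both directions, 5 up and 1 down of 18 at 3 h, 6 up and 3 down at 8 h, and 3 up and 3 down between the times. Of all genes, 20.2% were called up and 18.7% down at 3 h, and 15.3% and 13.1% at 8 h. Between the times the shares were 13.7% and 14.3%. The number of chaperones down at 8 h was 0 without vehicle replicate 1 or OxA 8 h replicate 1. Between the times it was 1 without OxA 3 h replicate 2 or OxA 8 h replicate 1. Npm1, nucleophosmin, rose by 0.30 at 3 h (adjusted p = 4.79e-06) and by 0.71 at 8 h (adjusted p = 8.66e-12), and Ncl, nucleolin, by 0.49 (adjusted p = 7.11e-09) and 0.54 (adjusted p = 2.48e-08). Chaf1b, a subunit of the chromatin assembly factor that acts at replication forks, rose by 0.40 at 3 h (adjusted p = 6.37e-06) and fell by 0.46 from 3 h to 8 h (adjusted p = 5.90e-07).

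Genes tied to HMGA2 in other systems were looked at as well. The microRNA let-7 represses HMGA2, LIN28 blocks let-7, and IGF2BP2 is a known target of HMGA2 in mouse muscle. Of 11 genes listed, 8 were tested, with 3 up and 2 down at 3 h, 3 up and 0 down at 8 h, and 2 up and 2 down between the times. Those last counts were 0 to 1 up and 1 to 2 down when any 1 culture was left out. Among all genes, 20.2% were called up and 18.7% down at 3 h, and 15.3% and 13.1% at 8 h. Between the times these shares were 13.7% and 14.3%. Igf2bp2 had 225 ± 16.3 normalized counts in vehicle, 379 ± 43.4 at 3 h (log2FC 0.75, SE 0.097, adjusted p = 1.38e-06) and 317 ± 23.9 at 8 h (0.48, SE 0.095, adjusted p = 0.000408). Igf2bp1, a related RNA-binding protein, fell by 0.39 at 3 h (adjusted p = 0.00144). Zcchc11, a uridylyltransferase of the LIN28 route, rose by 0.44 at 3 h (adjusted p = 4.38e-08). Lin28a was listed at 0 TPM in all groups, and Lin28b had 0.107 ± 0.0366 TPM in vehicle and 0.118 ± 0.0407 at 8 h.

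Of the receptors and partners of HMGB1, 9 of 10 listed were tested at 3 h (2 up, 2 down) and 8 at 8 h (2 up, 1 down). Between the times 3 were up and 1 down of 8. The shares over all genes were 20.2% up and 18.7% down at 3 h, and 15.3% and 13.1% at 8 h. Between the times they were 13.7% and 14.3%. Havcr2, which encodes TIM-3, a receptor that binds HMGB1 on immune cells, rose from 15.3 ± 5.73 normalized counts to 37.4 ± 5.50 at 3 h (log2FC 1.29, adjusted p = 0.000962) and 67.6 ± 8.15 at 8 h (2.14, adjusted p = 4.39e-07). Ager, the receptor RAGE, fell by 0.71 at 3 h (adjusted p = 0.0198), a call lost without vehicle replicate 2 (adjusted p = 0.132), OxA 3 h replicate 1 (0.0666) or OxA 3 h replicate 2 (0.0729). Tlr2, a Toll-like receptor, fell by 0.50 at 8 h (adjusted p = 0.0125), and Cxcl12, a chemokine that forms a complex with HMGB1, rose by 0.63 (adjusted p = 0.0181). The call of Tlr2 was lost without vehicle replicate 1 (adjusted p = 0.117) or OxA 8 h replicate 3 (0.0685). That of Cxcl12 was lost without vehicle replicate 1 (adjusted p = 0.067), vehicle replicate 2 (0.114), OxA 8 h replicate 1 (0.0597) or OxA 8 h replicate 3 (0.088). The list had 4 members up at 8 h without vehicle replicate 3.

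**Figure D5:**
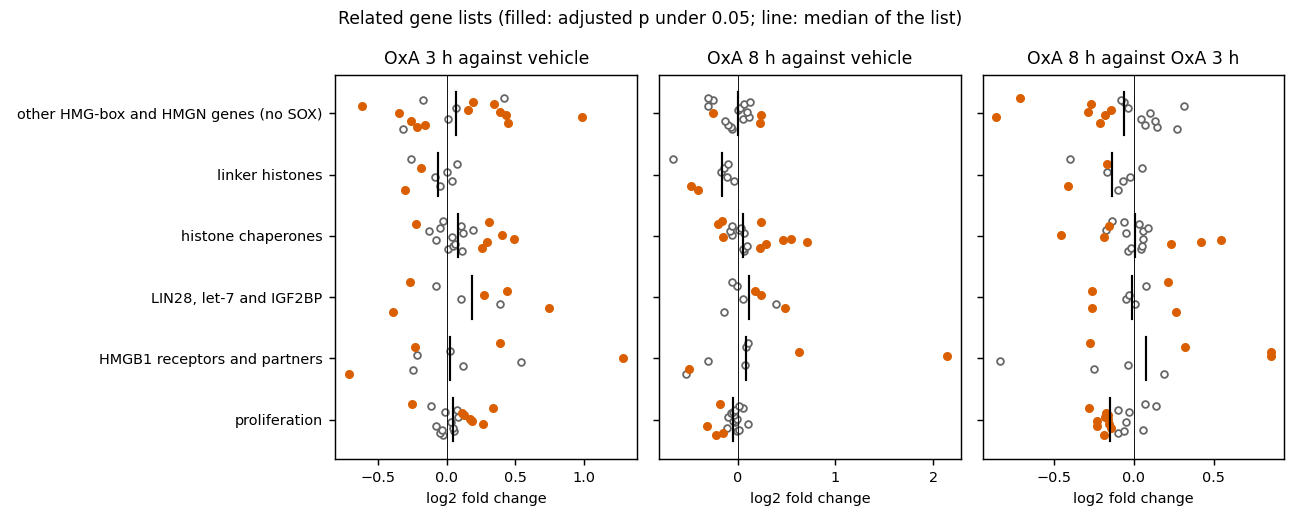
Log2FC (x axis) of each tested gene of the 6 related lists in the 3 comparisons, with filled points for an adjusted p under 0.05 and a line at each list's median. Havcr2 at 8 h (2.14) lies farthest out, and at 3 h Havcr2 (1.29) and Ubtf (0.99) have the largest changes. In the proliferation list the median between the OxA times is -0.15.

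The genes whose pattern was most like that of each HMGA gene were found over all 9 cultures, using the 11786 genes that averaged 50 normalized counts or more, as those with the smallest root mean square difference in log2 expression centred on vehicle. Nearest to Hmga1 were Mical2 (0.20), Igsf11 (0.22), Pappa (0.24) and Myc (0.25). Myc, a growth-promoting transcription factor, went from 223 ± 41.5 normalized counts in vehicle to 1147 ± 158 at 3 h and 839 ± 41.2 at 8 h. Mical2, which oxidizes actin, went from 158 ± 12.04 to 683 ± 21.6 and 484 ± 65.3.

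Nearest to Hmga2 were Sema7a (0.50), Areg (0.50), Plaur (0.50) and Cd109 (0.63), at larger distances than for Hmga1. Areg, a ligand of the EGF receptor, went from 14.7 ± 1.83 normalized counts in vehicle to 262 ± 99.6 at 3 h and 306 ± 54.5 at 8 h. Sema7a, a membrane-bound semaphorin, went from 29.0 ± 4.55 to 374 ± 93.9 and 642 ± 99.7. The HMGA genes differed from each other by 1.40, at which Hmga1 ranked 37 of 11786 in nearness to Hmga2 and Hmga2 ranked 2249 in nearness to Hmga1.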

How the data were processed

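RNA-Seq data of 9 GT1-7-OX1 cultures, grouped by their labels, were analysed. Total RNA was depleted of ribosomal RNA and made into stranded libraries. The authors trimmed reads with Trimmomatic, aligned them to mm10 with STAR 2.5.2a and counted them per gene with HTSeq 0.6.0. The annotation and strand setting are not given in the sources used here. The deposited raw counts are whole reads per gene, not normalized, and were tested. The authors' deposited TPM values, whose gene lengths are not stated, were used for levels and in alternatives. Deposited normalized counts and DESeq2 1.10.1 comparison tables (fold changes and p-values) were not used.

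In R 4.3.3 with edgeR 4.0.16, each comparison was fitted on its own 2 groups (filterByExpr, TMM, robust glmQLFit, glmQLFTest, two-sided), with Benjamini-Hochberg adjustment over all genes kept. Alternatives were upper-quartile, median-of-ratios and total-count scaling, no filter, DESeq2 1.42.0, all 9 samples in 1 fit, a replicate block, each replicate left out, and limma 3.58.1 on log2(TPM + 1) and log2(TPM + 0.1). The SE is the log2FC divided by the square root of F. The fits were tested on simulated data.

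The members and lists were chosen with earlier results of these data known. Named were all members, up to 4 called genes of largest change per list, and for Hmga1 and Hmga2 the 4 nearest in pattern. The text gives some of these. Per the methods, treatment and RNA isolation were repeated to give 3 replicates per group, and p-values measure the spread between these samples, which may be technical. The uniqueness of the reads counted for Hmga1 is not reported here.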

Additional observations from a re-analysis of the deposited data

Results flagged for a closer look

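Hmgb2 and Hmgb3 differed between the OxA times, by the direct test of 8 h against 3 h, since both effects are measured against the same vehicle cultures. Hmgb3 had a log2FC of -0.35 (SE 0.082, adjusted p = 0.00268 by edgeR), with an effect of 0.30 at 3 h and -0.055 at 8 h. For Hmgb2 the value was -0.16 (SE 0.054, adjusted p = 0.0293), with effects of 0.090 and -0.078 that were not called on their own. As no vehicle culture was taken at 3 h, time in OxA cannot be told apart here from time since fresh medium.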

How the results depend on the processing

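Of 384 recomputed member values 334 kept direction and call, 20 lost the call, 3 gained it and 27 changed sign, and none of those that changed sign had been called. Hmga1 and Hmga2 kept their rise at 3 h and 8 h in all 16 alternatives. For Hmga2 the log2FC at 3 h ran from 1.51 (limma on log2(TPM + 1), which understates low genes) to 4.23, and for Hmga1 from 1.72 to 2.09. Leaving aside limma, the number of genes called stayed within 1.5 times in all 39 recomputed counts. So did 395 of 468 list counts, while the other 73 moved further. The limma settings were not part of these counts. Without a filter, limma called 2412 genes at 8 h (4377 in the main fit) and 2220 between the times (4277), both beyond that limit. At 3 h it called 4262 (5973), within the limit. All 24 recomputed TPM means of vehicle stayed within 1 SD when each culture was left out, a check chosen after seeing the data. With 3 cultures, leaving out 1 cannot move the mean by 1 SD, so this check could not fail. The recomputed means ran from 0.126 to 0.178 TPM for Hmga2 and from 4.55 to 5.12 TPM for Hmga1.

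The call of Hmgb3 at 3 h was lost in the 3 limma settings (adjusted p of 0.0522, 0.0515 and 0.0889). Sign changes at 3 h were, with upper-quartile scaling, Hmgn1 -0.016 and Hmgn2 -0.019, and with totals without mt-Rnr1, mt-Rnr2 and Rn7sk, Hmgb1 -0.025, Hmgb2 -0.0089, Hmgn1 -0.055 and Hmgn2 -0.058. With limma at 3 h they were Hmgb1 -0.0012, Hmgn1 -0.032 and Hmgn2 -0.034 on log2(TPM + 1), the same without a filter, and -0.0012, -0.032 and -0.035 on log2(TPM + 0.1). At 8 h Hmgb1 turned to -0.015 with upper-quartile scaling, -0.043 with those totals, -0.034 with limma on log2(TPM + 1) with or without a filter, and -0.035 on log2(TPM + 0.1). With each replicate left out, Hmgb1 ran from -0.024 to 0.072 at 8 h and from -0.10 to 0.0078 between the times, and Hmgn3 from -0.16 to 0.0051 and from -0.061 to 0.11. With the totals above, calls were gained by Hmgn3 at 3 h (-0.20, adjusted p = 0.0442) and Hmgn2 at 8 h (-0.12, adjusted p = 0.0283). The cause of these changes was not tested.

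Whether the replicate numbers mark the repeats of the experiment is not stated. Correlations of same-numbered deviations ran from 0.0076 to 0.162. For 8 h against vehicle each was above those of other numbers, while for the other comparisons this did not hold for every number, so the fits without the block were kept. With the replicate block 6500 genes were called at 3 h (5973 without), 5558 at 8 h (4377) and 5348 between the times (4277), and Hmgn2 gained a call between the times (log2FC -0.098, adjusted p = 0.0385). At 14 vehicle counts, depth limits the fold of Hmga2.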
